A study of Homo sapiens with 18 samples.

Results

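The genes described here are the enzymes of glycolysis below hexokinase, the entry of pyruvate and of the pentose phosphate route, lactate export, and the hypoxia-inducible factors (HIF) with their hydroxylases and targets. They were chosen by name, as 35 gene symbols, and all 35 matched a row among the 57820 gene identifiers of the count table. The table held 18 RNA-seq libraries of MDA-MB-231 cells, an established line from a human breast cancer, of wild-type genotype per the labels. All cells were kept in L-15 medium with 15% serum and 2 mM glutamine under 1% CO2, and were harvested 72 h after lipofection of an siRNA. The 3 groups of 6 libraries received a control siRNA (siCtrl) or 1 of 2 siRNAs against RagC (siRagC1 and siRagC2), a GTPase that, with its Rag partners, holds the kinase complex mTORC1 at the lysosome. All groups share the cell line, the medium and the transfection. The sources used here do not give the oxygen level, and no group is labelled as hypoxic.

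Glycolysis turns glucose into pyruvate, which either enters the mitochondrion through pyruvate dehydrogenase or is reduced to lactate and exported. HIF1A and EPAS1 encode the oxygen-regulated subunits of the HIF factors: in oxygen, the EGLN prolyl hydroxylases mark these proteins for destruction, and in low oxygen they pair with ARNT and switch on glycolytic enzymes, VEGFA, carbonic anhydrases and their own hydroxylase EGLN3. mTORC1 is known to raise HIF1A protein and, through it, the transcripts of glycolytic enzymes, mostly from work in other cells. Many tumour lines keep glycolysis high in air. The standard L-15 recipe carries galactose and pyruvate in place of glucose.

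RRAGC, the gene of RagC, lay between 60.6 and 67.9 CPM (counts scaled to a common library size with TMM factors) in the siCtrl libraries. The range was 12.3 to 31.9 with siRagC1, and 19.3 to 40.8 with siRagC2. It was thus lower in every library labelled as a knock-down than in every siCtrl library. Of the markers of a mesenchymal breast cancer line, VIM, CD44, AXL and CAV1 were all high (mean 4335, 926, 1370 and 464 CPM in siCtrl), and CAV1 fell with each siRNA. Of the 5 markers listed as absent in such a line, ESR1, PGR and CDH1 had means under 1 CPM in siCtrl, whereas KRT8 (532 CPM) and EPCAM (15.6 CPM) were detected. Among leukocyte markers, PTPRC lay between 0.173 and 0.774 CPM across the libraries, and CD3E had at most 2 counts in any library. Libraries held 14.8 M to 71.6 M counts. They carry codes of 2 series, D1103 for replicate numbers 1 and 2 and D1221 for numbers 3 to 6, whose meaning the sources used here do not give. The labels call replicates biological without saying that cultures were separate, so the p-values reflect only how these samples vary, which may be technical in part.

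Stretches of 6 promoters are shown because they hold the HIF core letters in genes the comparisons turn on: CA12 and EPAS1, which rose with siRagC2, LDHA, whose values with siRagC1 lay apart from the control, and CA9, PGK1 and ANKRD37, textbook HIF targets that did not pass. Each stretch lies in the 250 bases before the RefSeq start of the gene (GRCh38.p14) and reads 5′ to 3′ on the gene's strand, with the core in capitals on whichever strand it was found (ACGTG reads CACGT, and GCGTG reads CACGC, from the other strand).
CA12, chr15:63382054-63382096, minus strand: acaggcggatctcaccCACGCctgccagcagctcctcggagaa
EPAS1, chr2:46297268-46297316, plus strand: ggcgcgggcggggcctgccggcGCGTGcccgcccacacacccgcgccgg
CA9, chr9:35673888-35673927, plus strand: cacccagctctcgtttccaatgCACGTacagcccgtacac
LDHA, chr11:18394468-18394516, plus strand: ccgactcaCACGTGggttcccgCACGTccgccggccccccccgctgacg
PGK1, chrX:78104043-78104091, plus strand: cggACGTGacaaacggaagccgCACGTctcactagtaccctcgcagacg
ANKRD37, chr4:185396676-185396724, plus strand: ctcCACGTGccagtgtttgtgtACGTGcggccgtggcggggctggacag
In CA12 the core was GCGTG, 234 bases before the start, and in EPAS1 it was also GCGTG, 117 bases before it. LDHA and ANKRD37 carry the palindrome CACGTG, which holds ACGTG on both strands, next to a further ACGTG.

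Of the 35 members, 31 had a promoter in the RefSeq table. PFKFB2, SLC16A1, VEGFA and NDRG1 had none. On either strand ACGTG stood in 19 of the 31 (61.3%), against 21.7% of 27305 genes, and GCGTG in 17 (54.8%), against 36.2%. ACGTG or GCGTG stood in 27 (87.1%), against 47.4%, and CACGTG in 7 (22.6%), against 7.73%. These windows were not matched for base composition, and the members were picked partly as known HIF targets, so the shares only describe them. A match of 5 letters is not a binding site.

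Per kilobase of exon, the control cells carried far more glycolytic than HIF-target transcript. GAPDH, the glyceraldehyde-phosphate dehydrogenase, led at 1444 CPM per kilobase, followed by the enolase ENO1 at 543, the pyruvate kinase PKM at 339, the lactate dehydrogenase LDHA at 314, the triosephosphate isomerase TPI1 at 303 and the aldolase ALDOA at 300. The last 4 did not differ beyond their spread between libraries. Among the phosphofructokinases PFKP (118) stood above PFKM (17.6) and PFKL (12.7), and likewise ALDOA above ALDOC (7.07) and ENO1 above ENO2 (80.5). Of the kinases that shut off pyruvate dehydrogenase, PDK1 stood at 2.36 and PDK3 at 0.302, against 4.92 for PDK2 and 0.988 for PDK4, which are not among the 35.

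LDHB, the other lactate dehydrogenase subunit, stood at 229 CPM per kilobase, PGK1 at 96.8 and the phosphoglycerate mutase PGAM1 at 91.2. Of the lactate exporters, SLC16A3 (MCT4) stood at 59.7, whereas SLC16A1 (MCT1) had 0 to 6 counts in a library and was the only member left untested. HIF1A stood at 173 and EPAS1 at 12.2. Among the targets, BHLHE40 (46.9) and VEGFA (25.1) were highest and CA9 (3.14), CA12 (5.42) and ANKRD37 (1.75) low. Exon lengths came from an annotation of GRCh38, whereas the counts were made on GRCh37, so order between close neighbours is not firm.

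**Figure D1:**
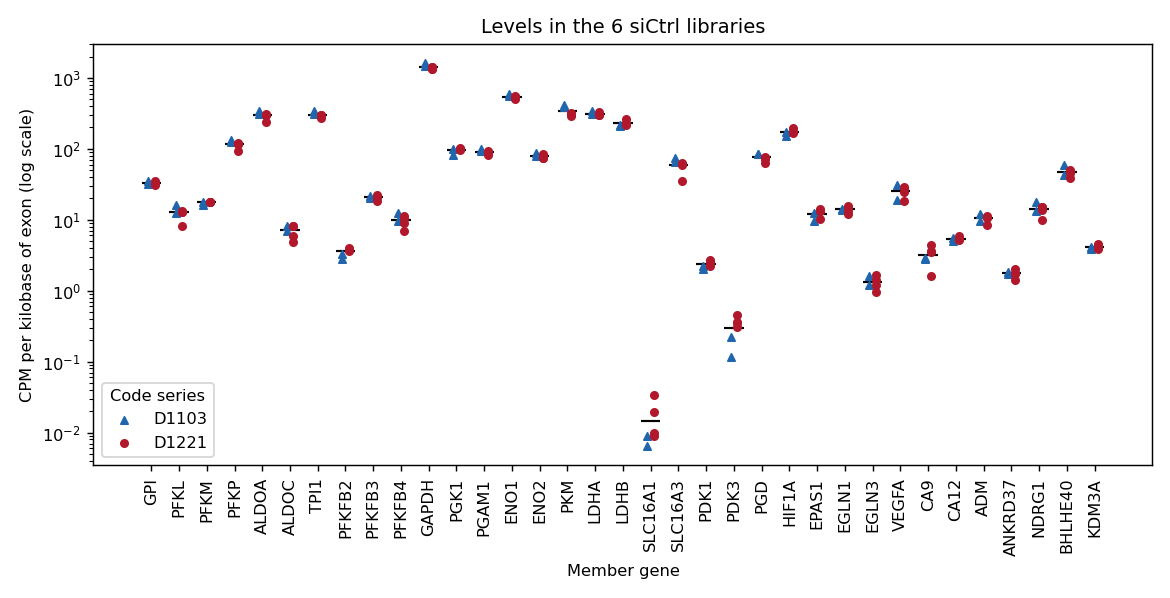
CPM per kilobase of exon (log axis) of the 35 members in the 6 siCtrl libraries, with triangles for D1103, circles for D1221 and a line at the mean. GAPDH sits highest near 1444 and SLC16A1 lowest, and the members span about 5 powers of 10 while libraries of a gene mostly lie close together.

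With RagC depleted, few members were called changed. A missing call does not show that a member kept its control level. With siRagC1, 0 of the 34 tested members passed in either direction by edgeR's quasi-likelihood test at an adjusted p under 0.05, where 2.04% of the 15307 tested genes did (1.41% higher and 0.627% lower). At an unadjusted p under 0.05 stood 9 members, 3 of them higher and 6 lower, against 17.1% of all genes. With siRagC2, 2 members rose, CA12 and EPAS1, and 0 fell, where 3.23% of all genes were called (1.87% higher and 1.36% lower). With the replicate number as a block the same 2 members rose, and 6.44% of all genes were called. At an unadjusted p under 0.05 stood 6 members, against 18.5% of all genes. Both comparisons use the same 6 siCtrl libraries.

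Most glycolytic genes stood slightly below the control and most HIF genes slightly above it. The 22 tested genes of glycolysis, lactate and pyruvate had a median log2 fold change of -0.04 with siRagC1 (15 of 22 below 0) and -0.02 with siRagC2 (13 of 22 below 0). The 12 HIF factors, hydroxylases and targets had a median of 0.09 (8 of 12 above 0) and 0.12 (9 of 12 above 0). Over all tested genes the median was 0.01 and 0.00, with 7400 and 7396 of 15307 below 0. With siRagC2 the split did not hold in each series: 13 of 22 glycolytic genes stood above 0 in D1103, and 6 of 12 HIF genes in D1221. Genes are not replicates, and these counts were not tested. Together the 22 tested glycolytic genes made up 1.80% ± 0.125 (SD, n = 6) of scaled counts in siCtrl, 1.73% ± 0.0966 with siRagC1 and 1.74% ± 0.105 with siRagC2. In bulk RNA, fewer cells with a transcript and less of it per cell cannot be told apart.

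For single transcripts, the fit that takes 1 siRNA effect over both code series bounds the size of change. For each siRNA the 95% interval of all 22 tested glycolytic genes lay within 1.5-fold of the control. Within 1.2-fold lay 17 of 22 with siRagC1, the exceptions being ALDOC, PFKFB4, LDHA, PDK1 and PDK3, and 18 of 22 with siRagC2, the exceptions being ALDOC, PFKFB4, SLC16A3 and PDK3. Of the 12 HIF genes, 12 and 11 lay within 1.5-fold, CA9 with siRagC2 being the exception, and only 3 and 4 within 1.2-fold.

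**Figure D2:**
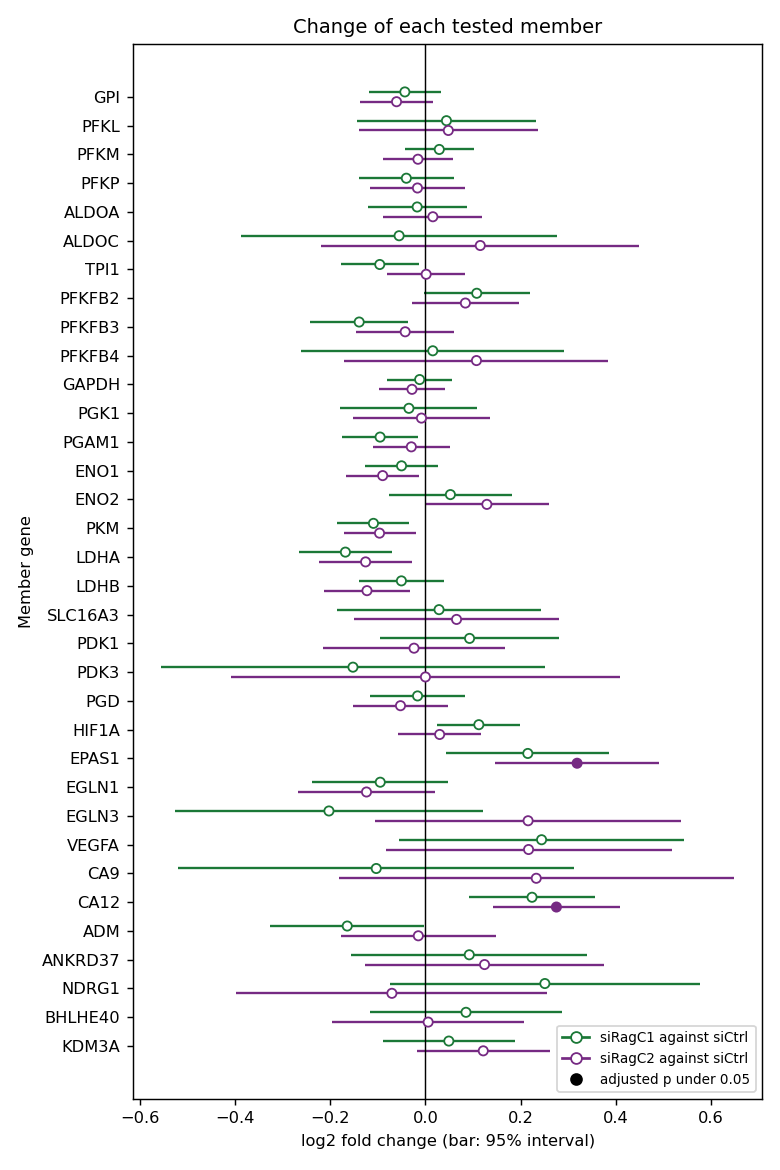
Log2 fold change against siCtrl (x axis) of the 34 tested members (y axis), green for siRagC1 and purple for siRagC2, with 95% intervals, and filled where the adjusted p was under 0.05. Filled points are CA12 (0.28) and EPAS1 (0.32) with siRagC2 alone, and the intervals of most glycolytic genes are narrow and cross 0.

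Among the HIF factors, EPAS1, which encodes HIF-2 alpha, rose with siRagC2. In CPM, for replicates 1 to 6, the siCtrl libraries held 90.7, 71.2, 103, 96.9, 97.0 and 75.8. The siRagC2 libraries held 122, 98.1, 119, 117, 115 and 92.8. The siRagC1 libraries held 106, 90.1, 111, 110, 101 and 101. The siCtrl libraries 2 and 6 were the lowest of their group, 4 of 6 siRagC2 libraries lay above every siCtrl library, and the groups overlapped. The log2 fold change was 0.32 ± 0.08 (SE) with siRagC2 (edgeR, adjusted p = 0.0371) and 0.22 ± 0.08 with siRagC1 (adjusted p = 0.177). EPAS1 was higher than in the same-numbered siCtrl library in 6 of 6 libraries of each siRNA, and with siRagC1 it passed in 2 of 36 alternatives. The numbers of siCtrl and siRagC1 did not meet the rule for pairs given with the processing. The share of all genes with such counts was not taken, so here and below they only describe.

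The siRagC2 call for EPAS1 rested on several libraries. Without siCtrl library 1, 2 or 6 the adjusted p was 0.0570, 0.0991 or 0.0740, and without siRagC2 library 1, 3, 4 or 5 it was 0.119, 0.0698, 0.0903 or 0.0637, all by edgeR. The log2 fold change itself stayed between 0.25 and 0.45 over 36 alternatives, 19 of which kept the call.

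HIF1A, the HIF-1 alpha gene, was measured more tightly than EPAS1. It ranged in siCtrl from 794 to 1008 CPM (median 889), with siRagC1 from 936 to 1023 (median 947) and with siRagC2 from 828 to 986 (median 913). These ranges overlap, and the log2 fold changes of 0.11 ± 0.04 (adjusted p = 0.165) and 0.03 ± 0.04 (adjusted p = 0.779) did not pass edgeR's threshold. Reads of HIF1A and of the RNAs antisense to it cannot be separated if counting ignored strand, on which the sources used here say nothing.

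The prolyl hydroxylases did not pass either. EGLN1, the main oxygen sensor of the family, had log2 fold changes of -0.10 ± 0.07 and -0.12 ± 0.07 with siRagC1 and siRagC2 (edgeR, adjusted p = 0.508 and 0.355). It was lower than the same-numbered control in 6 of 6 and 5 of 6 libraries. EGLN3, which HIF itself induces, stood at -0.20 ± 0.16 and 0.22 ± 0.15 (adjusted p = 0.540 and 0.506), with wide intervals at about 10 CPM.

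CA12, a membrane carbonic anhydrase that helps set pH at the cell surface, had the lowest p of the members with siRagC2. In CPM, for replicates 1 to 6, siCtrl held 36.5, 40.9, 40.5, 43.2, 37.8 and 38.7. The siRagC2 libraries held 55.9, 55.9, 41.8, 47.8, 44.7 and 42.6, and the siRagC1 libraries 50.7, 48.0, 45.0, 49.6, 42.8 and 41.9. With each siRNA 4 of 6 libraries lay above every control, and the other libraries overlapped with control library 4. The siRagC2 libraries 1 and 2, both of series D1103, stood well above the 4 of D1221. The log2 fold change was 0.28 ± 0.06 with siRagC2 (edgeR, adjusted p = 0.0218) and 0.22 ± 0.06 with siRagC1 (adjusted p = 0.0688). CA12 was higher than in the same-numbered siCtrl library in 6 of 6 libraries of each siRNA.

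The call for CA12 with siRagC2 was lost without siCtrl library 1 or 2 (edgeR, adjusted p = 0.0723 and 0.0590) and without siRagC2 library 1, 2 or 4 (0.0755, 0.0573 and 0.0600). It held in 25 of 36 alternatives, over which the log2 fold change ran from 0.14 to 0.53. With siRagC1, CA12 passed in 8 of 36, among them DESeq2 (adjusted p = 0.0303), limma-voom (0.0460) and edgeR without siCtrl library 4 (0.0424) or siRagC1 library 6 (0.0367).

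The other 7 HIF targets did not pass. VEGFA, the vascular growth factor, ranged from 269 to 446 CPM in siCtrl (median 386), from 309 to 577 with siRagC1 (median 418) and from 373 to 479 with siRagC2 (median 408). Its groups overlapped widely, and its log2 fold changes were 0.24 ± 0.14 and 0.22 ± 0.14 (edgeR, adjusted p = 0.406 and 0.467). With no filter on low counts VEGFA passed with both siRNAs (edgeR, adjusted p = 8.85e-05 and 0.00117), where 2.57% and 2.71% of all genes were called. The filter did not act on VEGFA itself, which had 5192 or more counts in each library. What changed was the set of genes sharing the fit, 31112 in place of 15307. CA9, the carbonic anhydrase most often used as a hypoxia marker, ranged from 2.69 to 7.39 CPM in siCtrl, from 4.28 to 5.16 with siRagC1 and from 3.12 to 8.60 with siRagC2. Its siRagC1 values lay inside the control range, with log2 fold changes of -0.10 ± 0.20 and 0.23 ± 0.20 (adjusted p = 0.840 and 0.599).

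NDRG1, a stress-induced gene, stood at 0.25 ± 0.15 with siRagC1 and -0.07 ± 0.16 with siRagC2, with siRagC1 library 2 highest at 237 CPM. KDM3A, a histone demethylase, stood at 0.05 ± 0.07 and 0.12 ± 0.07, ADM, the peptide adrenomedullin, at -0.16 ± 0.08 and -0.02 ± 0.08, and ANKRD37 at 0.09 ± 0.12 and 0.12 ± 0.12. BHLHE40, a transcriptional repressor, stood at 0.09 ± 0.10 and 0.01 ± 0.10. All of these log2 fold changes carry adjusted p-values of 0.285 or more by edgeR. With no filter on low counts, NDRG1 passed with siRagC1 (edgeR, adjusted p = 0.000232), where 2.57% of all genes were called.

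**Figure D3:**
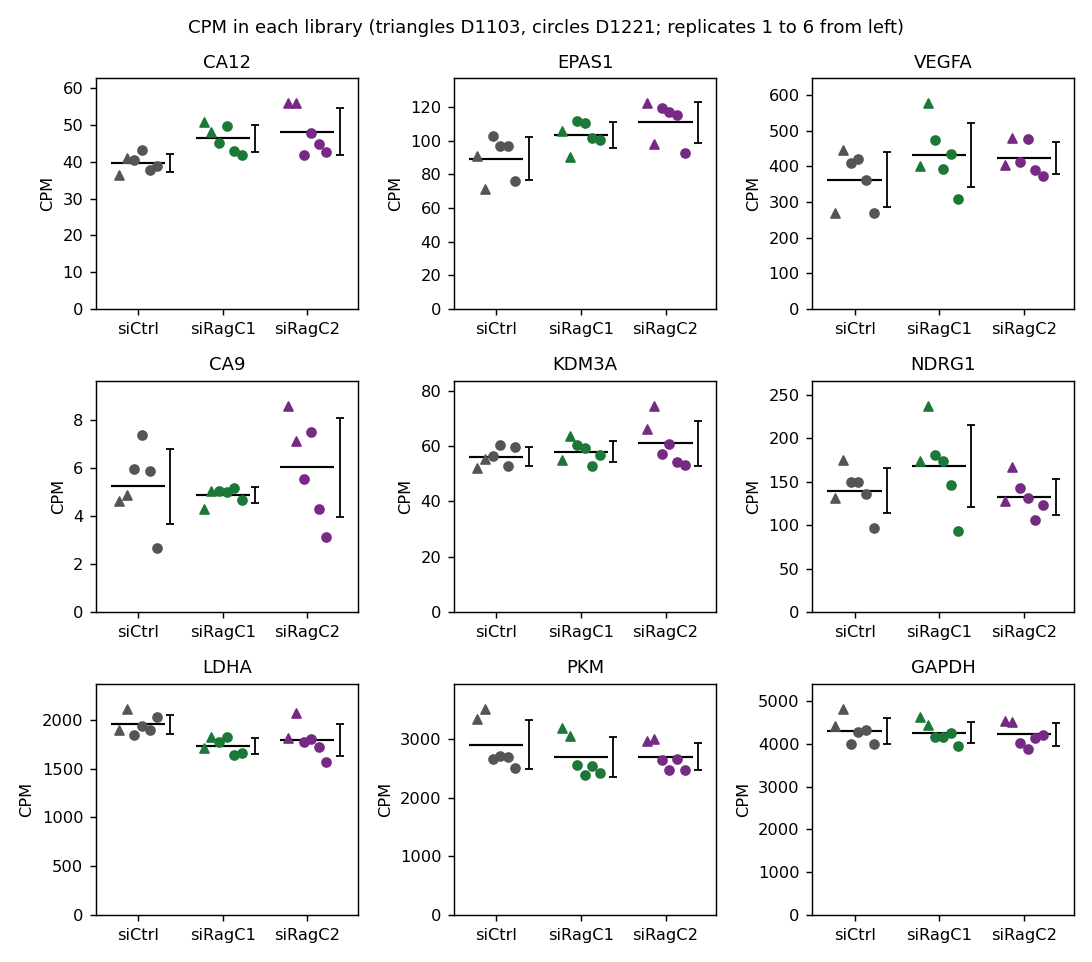
CPM (y axis from 0) of 9 members in each library by group, triangles for D1103 and circles for D1221, replicates 1 to 6 from left, a line at the mean and a bar of ± 1 SD. CA12 and EPAS1 sit higher with each siRNA, the siRagC1 points of LDHA lie below all siCtrl points, and PKM separates by code series in every group.

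In upper glycolysis, from glucose-6-phosphate to the triose phosphates, 0 of 7 genes passed with either siRNA. The log2 fold changes of GPI, PFKL, PFKM, PFKP, ALDOA, ALDOC and TPI1 ran from -0.10 (TPI1) to 0.04 (PFKL) with siRagC1 and from -0.06 (GPI) to 0.12 (ALDOC) with siRagC2. TPI1 ranged from 733 to 932 CPM in siCtrl (median 813), from 731 to 815 with siRagC1 (median 748) and from 714 to 943 with siRagC2 (median 795). With siRagC1 it was lower than its same-numbered control in 6 of 6 libraries (edgeR, adjusted p = 0.207), and with siRagC2 in 3 of 6.

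The PFKFB enzymes make or remove fructose-2,6-bisphosphate, the activator of phosphofructokinase. PFKFB3, the form with the strongest kinase activity, ranged from 112 to 136 CPM in siCtrl (median 127), from 109 to 123 with siRagC1 (median 113) and from 110 to 129 with siRagC2 (median 125). Of the siRagC1 libraries 3 lay below every control, but the groups overlapped. The log2 fold changes were -0.14 ± 0.05 and -0.04 ± 0.05 (edgeR, adjusted p = 0.141 and 0.720). PFKFB2 stood at 0.11 ± 0.05 and 0.08 ± 0.05, and PFKFB4 at 0.02 ± 0.13 and 0.11 ± 0.13, with 0 of the 3 genes called.

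In lower glycolysis, from glyceraldehyde-3-phosphate to pyruvate, 0 of 6 genes passed. GAPDH ranged from 3996 to 4820 CPM in siCtrl, from 3947 to 4643 with siRagC1 and from 3894 to 4549 with siRagC2. It is the gene most often used as a loading reference, and its log2 fold changes were -0.01 ± 0.03 and -0.03 ± 0.03 (edgeR, adjusted p = 0.894 and 0.721). PGK1, which makes ATP, stood at -0.03 ± 0.07 and -0.01 ± 0.07. PGAM1 stood at -0.10 ± 0.04 and -0.03 ± 0.04, and ENO2 at 0.05 ± 0.06 and 0.13 ± 0.06.

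PKM, which makes pyruvate, and ENO1 were lower than the same-numbered control in most libraries without passing. PKM ranged from 2516 to 3517 CPM in siCtrl (median 2697), from 2383 to 3188 with siRagC1 (median 2551) and from 2467 to 2998 with siRagC2 (median 2657). Its groups overlapped, but with each siRNA it was below its same-numbered control in 6 of 6 libraries, with log2 fold changes of -0.11 ± 0.04 and -0.10 ± 0.04 (edgeR, adjusted p = 0.116 and 0.146). ENO1 stood at -0.05 ± 0.04 and -0.09 ± 0.04 (edgeR, adjusted p = 0.513 and 0.184). It was lower than its same-numbered control in 5 of 6 and 6 of 6 libraries. GAPDH, PGK1, PGAM1, ENO1, TPI1 and LDHA have processed pseudogenes, and the sources used here do not say how reads shared with them were counted.

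LDHA, which reduces pyruvate to lactate, was the only member whose siRagC1 and siCtrl libraries did not overlap. It ranged from 1846 to 2112 CPM in siCtrl (median 1917), from 1636 to 1825 with siRagC1 (median 1741) and from 1563 to 2071 with siRagC2 (median 1786). All 6 siRagC1 libraries and 5 of 6 siRagC2 libraries lay below every control. Of all tested genes, 0.83% did not overlap between siRagC1 and siCtrl. Between siRagC2 and siCtrl 0 members and 1.14% of all genes did not overlap. The log2 fold change of LDHA was -0.17 ± 0.05 with siRagC1 (edgeR, adjusted p = 0.0622). It was -0.13 ± 0.05 with siRagC2 (adjusted p = 0.137), so neither passed. Over the 36 alternatives with siRagC1 it ran from -0.19 to -0.15 and passed in 7, among them DESeq2 (adjusted p = 0.0212) and edgeR without siRagC2 library 2 (0.0414) or 6 (0.0419).

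LDHB stood at -0.05 ± 0.04 and -0.12 ± 0.04 (edgeR, adjusted p = 0.590 and 0.116), and the lactate exporter SLC16A3 at 0.03 ± 0.10 and 0.07 ± 0.10. PDK1, which shuts off pyruvate dehydrogenase and is induced by HIF, stood at 0.09 ± 0.09 and -0.02 ± 0.09, and PDK3, at 0.582 to 2.28 CPM in siCtrl, at -0.15 ± 0.19 and 0.00 ± 0.20. PGD, the second dehydrogenase of the pentose phosphate route, stood at -0.02 ± 0.05 and -0.05 ± 0.05. Of these 5 genes 0 passed.

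Between the siRNAs, 0 members differed, and so did 0 of all tested genes (0%) by edgeR. At an unadjusted p under 0.05 stood 2 members, TPI1 and EGLN3, and 7.75% of all genes. EGLN3 had the largest log2 difference, siRagC1 minus siRagC2, at -0.42 ± 0.15 (adjusted p = 0.498), with a 95% interval from -0.74 to -0.10. For CA12 the difference was -0.05 with an interval from -0.18 to 0.08, and for EPAS1 it was -0.10 with an interval from -0.27 to 0.07. LDHA differed by -0.04 with an interval from -0.14 to 0.05. The missing calls do not show that the siRNAs act alike.

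Taken by code series, the HIF genes stood higher with siRagC2 in D1103, with 2 libraries a group, than in D1221, with 4. In D1103 the 12 had a median log2 fold change of 0.28 (10 of 12 above 0), and CA12 (0.53 ± 0.09, edgeR, adjusted p = 0.00883) and KDM3A (0.39 ± 0.09, adjusted p = 0.0423) rose, where 1.5% of all genes were called and 0.738% were called higher. CA9 stood at 0.71 ± 0.30 (adjusted p = 0.266). In D1221 their median was 0.01 (6 of 12 above 0) and 0 passed, where 0.0196% of all genes were called. CA12 stood there at 0.14 ± 0.07 and EPAS1 at 0.25 ± 0.10, against 0.44 ± 0.15 in D1103. The estimated depletion was deeper in D1103 too, although the test of the difference between series called 0 genes, RRAGC included. RRAGC stood at -1.65 in D1103 and -0.95 in D1221 with siRagC2, and at -2.04 and -1.12 with siRagC1. Whether the HIF genes followed the depth of depletion was not tested.

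The test of the difference between series called 0 members and 0 genes (0%) for either siRNA. For siRagC2, D1221 minus D1103, KDM3A stood at -0.41 ± 0.11, CA12 at -0.39 ± 0.11 and PKM at 0.16 ± 0.07 with unadjusted p-values of 0.0019, 0.00234 and 0.0411, and the adjusted p of each was 0.735 by edgeR. At an unadjusted p under 0.05 stood 6.66% of all genes. With siRagC1 the median of the 12 HIF genes was 0.15 in D1103 and 0.05 in D1221, with 0 called in each, where 0.372% and 0.0261% of all genes were. The 22 glycolytic genes had medians of -0.03 in both series with siRagC1, and of 0.02 and -0.04 with siRagC2. Some of them also stood well above 0 with siRagC2 in D1103: ALDOC at 0.46, PFKFB4 at 0.33 and ENO2 at 0.30, with 0 of the 22 called.

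**Figure D4:**
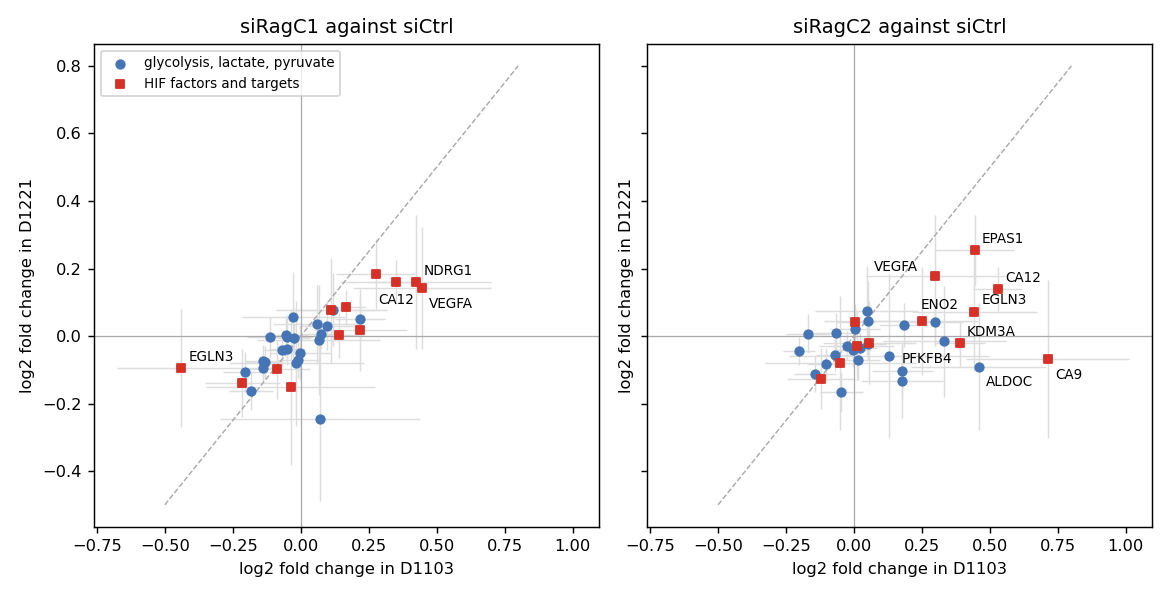
Log2 fold change in D1103 (x axis) against that in D1221 (y axis) of the 34 tested members, with bars of ± 1 SE, blue for glycolysis and red squares for HIF genes, and a dashed line of equal change. With siRagC2, CA12 (0.53 against 0.14), KDM3A and CA9 lie well to the right of the line. Most glycolytic genes cluster near 0, but ALDOC (0.46 in D1103), PFKFB4 (0.33) and ENO2 (0.30) lie to the right as well.

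Replicate number 6 was often the low library. In siCtrl it was the lowest of its group for 8 of 12 HIF genes and 14 of 22 glycolytic genes, with siRagC1 for 6 and 12, and with siRagC2 for 8 and 10. Of the siRagC2 libraries, number 2 was the highest for 7 of 12 HIF genes and number 1 for 3. Without the 3 libraries of number 6, edgeR called 7 members with siRagC1, of which CA12 and HIF1A were higher and PKM, TPI1, LDHA, PFKFB3 and PGAM1 lower, where 7.61% of all genes were called. With siRagC2 it called CA12, EPAS1 and, lower, ENO1, where 6.64% were called. Without siCtrl library 6 alone, HIF1A was higher and PKM, PFKFB3 and PGAM1 lower with siRagC1, where 2.98% of all genes were called.

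**Figure D5:**
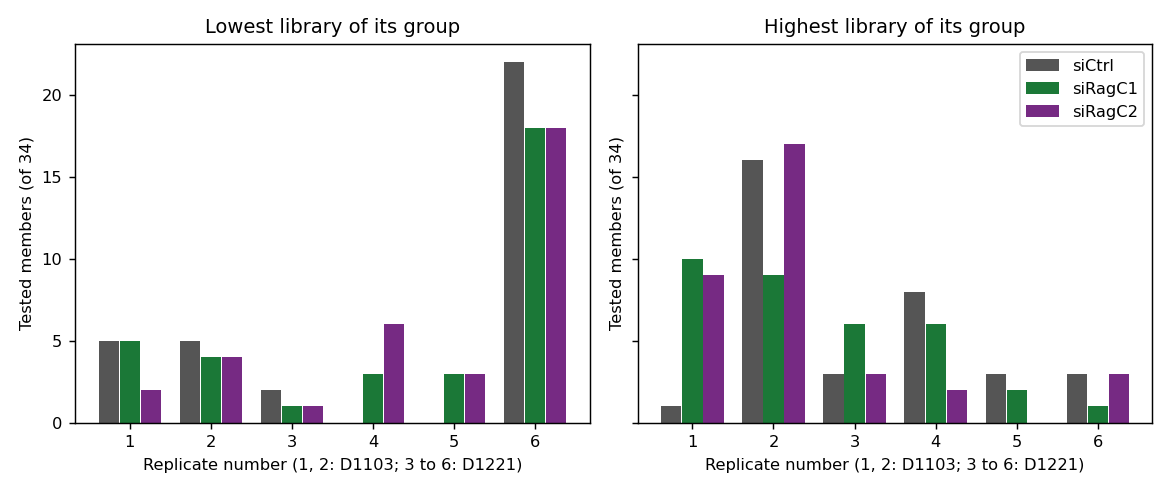
Number of the 34 tested members (y axis from 0) for which a replicate number (x axis) was the lowest (left) or highest (right) library of its group, by group. Number 6 is lowest for 22 members in siCtrl and 18 with each siRNA. In the siRNA groups, but not in siCtrl, the highest library is most often of D1103.

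More members were called between the code series than between siRNA groups. Over all groups, D1221 against D1103, 19 of 34 members were called by edgeR, 4 higher and 15 lower, and 48.8% of all genes were (23.8% higher and 25% lower). PKM had the lowest p, at -0.31 ± 0.03 (adjusted p = 2.18e-07), with means of 3435 CPM in the D1103 and 2644 CPM in the D1221 siCtrl libraries. Of the 22 glycolytic genes 13 were lower in D1221, among them GAPDH (-0.15), SLC16A3 (-0.31), PFKFB4 (-0.37) and ALDOC (-0.38), and PDK3 (0.90), PFKFB2 (0.20) and LDHB (0.12) were higher. Of the HIF genes, HIF1A was higher (0.11) and BHLHE40 (-0.25) and CA12 (-0.15) lower. In the siCtrl libraries alone, a comparison added after seeing the data, PKM was the only member called by edgeR, where 4.39% of all genes were.

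Some other genes of the same pathways passed. From lists of 62 further genes of glucose uptake, the pentose phosphate route, pyruvate entry and the HIF system, 61 were tested. With siRagC1, 3 were higher and 0 lower by edgeR, and with siRagC2, 8 were higher and 1 lower. The shares called over all genes were 2.04% and 3.23%. The lists were chosen with earlier results of these data known, so their counts only describe them. Their median log2 fold change was 0.01 and 0.05.

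HKDC1, a hexokinase-like gene, belongs at the top of glycolysis, upstream of the glycolytic enzymes among the members. It ranged from 7.88 to 12.4 CPM in siCtrl (median 9.06). The range was 11.7 to 17.1 with siRagC1 (median 15.6) and 11.7 to 15.6 with siRagC2 (median 13.9). Only siCtrl library 3 reached the range of the siRNA groups, and HKDC1 rose by 0.61 ± 0.11 and 0.52 ± 0.11 on the log2 scale (edgeR, adjusted p = 0.0049 and 0.0115). SLC2A3, the neuronal-type glucose transporter GLUT3, rose with siRagC2 (0.60 ± 0.12, adjusted p = 0.0107), with 174 and 169 CPM in the D1103 libraries and 77.5 to 129 in D1221. The main transporter SLC2A1 and the hexokinases HK1 and HK2 did not pass. Of the 7 other pentose phosphate genes 0 passed.

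Among the genes of pyruvate entry, 4 regulators of pyruvate dehydrogenase passed with at least 1 siRNA. PDK2, a kinase that shuts the complex off, rose by 0.21 ± 0.05 with siRagC1 and by 0.33 ± 0.05 with siRagC2 (edgeR, adjusted p = 0.0427 and 0.0020), and PDK4, of the same family, rose with siRagC2 (0.40 ± 0.11, adjusted p = 0.0417). PDP1, a phosphatase that switches it on, rose with both (0.35 ± 0.06 and 0.32 ± 0.06, adjusted p = 0.00577 and 0.00962). It ranged from 58.5 to 72.2 CPM in siCtrl, from 79.9 to 93.1 with siRagC1 and from 76.6 to 94.1 with siRagC2, with no overlap of either siRNA with the control. PDP2, the other phosphatase, fell by 0.35 ± 0.07 with siRagC2 (adjusted p = 0.0106). PDHA1, PDHB, DLAT, PDHX, MPC1 and MPC2 did not pass. The siRagC1 call of PDK2 was lost without siCtrl library 1, 2, 5 or 6, siRagC1 library 1 to 5, or siRagC2 library 3 to 5 (adjusted p from 0.0518 to 0.123). That of PDK4 was lost without siCtrl library 1 to 5, siRagC1 library 3, or siRagC2 library 1, 2, 4, 5 or 6 (0.0514 to 0.118).

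Of the 8 tested genes of the HIF machinery 0 passed, ARNT and VHL among them. Of 26 further HIF targets, 0 passed with siRagC1 and 2 rose with siRagC2: P4HA2, a collagen prolyl hydroxylase (0.22 ± 0.06, edgeR, adjusted p = 0.0409), and LOX, which cross-links collagen (0.36 ± 0.10, adjusted p = 0.0456). ARRDC4, a readout of the glucose-sensing factor MondoA, rose with siRagC2 (1.04 ± 0.26, adjusted p = 0.0293) at low levels, from 0.305 to 1.42 CPM in siCtrl and from 1.07 to 2.35 with siRagC2. The call of P4HA2 was lost without siCtrl library 1, 2 or 5, siRagC1 library 2 or 5, or siRagC2 library 1 to 4 (adjusted p from 0.0523 to 0.131). That of LOX was lost without those or siCtrl library 6 (0.0516 to 0.13), and that of ARRDC4 without siCtrl library 1 to 4 or siRagC2 library 1, 2, 4 or 5 (0.0514 to 0.0898).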

How the data were processed

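RNA-seq libraries were made from 500 ng of MDA-MB-231 total RNA each. The authors deposited whole-number counts per gene, in 1 table. The submitters' processing notes name cutadapt 0.6.2, STAR 2.7.6a and GRCh37/hg19. The sources used here name no counting tool, strand setting or annotation. Symbols came from a table of gene identifiers, which paired 51996 of 57820.

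Genes passing filterByExpr (minimum count 10) were fitted with edgeR 4.0.16 in R 4.3.3: TMM factors, terms for siRNA group and code series, robust quasi-likelihood F test. Calls needed p under 0.05 after Benjamini-Hochberg adjustment across the 15307 genes tested. A second model let the siRNA effect differ by series. SE came from the F value, or from the information matrix where the log2 fold change was under 0.01. CPM used TMM-scaled totals, and levels per kilobase used exon lengths of GENCODE transcripts on GRCh38. The fit was tested on simulated data. DESeq2 1.42.0 and limma 3.58.1 served as alternatives.

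The text names all 35 members and RRAGC, and from each other list up to 4 genes past the threshold, by size of change. Of the 63 listed other genes 1, TXNIP, had no matching row. Members and lists were chosen with earlier results of these data known. Between pairs of libraries of a group, the ratio of squared deviation to counting variance, averaged over genes, was 2.81 to 81.7. No library thus repeated another. Same-numbered libraries of siCtrl and siRagC2 correlated at 0.116 to 0.492, and those of the siRNAs at 0.221 to 0.582, all above 0.1 and so counted as pairs. For siCtrl and siRagC1 the range was 0.076 to 0.61. These correlations include what libraries of the same code series share. Within series they ran from -0.038 to 0.204, from 0.044 to 0.263 and from -0.075 to 0.299, so the lowest of each fell under 0.1. The pairing comes from the replicate numbers in the labels.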

Additional observations from a re-analysis of the deposited data

Results flagged for a closer look

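In 4 of 105 sets of 6 libraries (a member in a group), the highest or lowest library stood apart by Dixon's ratio (critical value 0.625). Chance flags about 1 in 20 groups. ENO1 was lowest in siRagC1 replicate 6, at 2496 CPM. HIF1A was highest in siRagC1 replicate 4, at 1023 CPM. PFKM was lowest in siCtrl replicate 2, at 119.4 CPM, and PGK1 was lowest in siCtrl replicate 1, at 456.7 CPM.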

How the results depend on the processing

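With siRagC1 against siCtrl, the count of members higher was 0 as reported. The share of all genes called under a setting follows the members in brackets. The count became 4 with no filter (CA12, NDRG1, VEGFA, EPAS1; 2.57%), 1 by DESeq2 (5.47%), limma-voom (3.21%) or the D1103 libraries alone (3.43%), CA12 each time, and 0 to 2 leaving out a library or replicate number. The count lower became 1 with no filter or limma-voom (LDHA), 2 by DESeq2 (LDHA, PKM), and 0 to 5 leaving out a library or number. With the replicate block the counts were 2 higher (CA12 and EPAS1, edgeR, adjusted p = 0.0323 and 0.0103) and 1 lower (LDHA, 0.0191), and 5.64% of all genes were called. These siCtrl and siRagC1 numbers did not meet the pairing rule. A library correlated best with its own number in 4 of 6 cases there, in 3 of 6 for siCtrl and siRagC2 and in 4 of 6 between the siRNAs. Within code series the correlations were lower, from -0.075 to 0.299, from -0.038 to 0.204 and from 0.044 to 0.263. With siRagC2 the 2 members higher became 0 with no series term (0.124%), with the D1221 libraries alone (0.00666%) or at an adjusted p under 0.01 (0.64%). They became 5 with the D1103 libraries alone (CA12, CA9, ALDOC, ENO2, KDM3A; 7.1%), 3 with no filter (CA12, VEGFA, EPAS1; 2.71%), 1 with the compared groups alone (CA12; 2.31%), and 0 to 2 leaving out a library or number. The count lower ran from 0 to 1, and the replicate block changed no siRagC2 call of a member. Between the siRNAs 1 member was higher (NDRG1) and 1 lower (EGLN3) with no filter (0.704%), 3 were lower in D1103 alone (CA9, ALDOC, EGLN3; 1.43%), and leaving out gave 0 higher and 0 to 1 lower. D1221 against D1103 called 1 member (PKM; 4.39%) in the siCtrl libraries alone. The cause of these shifts was not tested. Of 4100 values of named genes over the alternatives, 150 lost and 41 gained a call, and 0 called values changed sign. RLE or upper-quartile factors moved no member's count. Over all genes the calls ran from 1 to 1178 with siRagC1 (312 as reported) and from 1 to 1149 with siRagC2 (495). Precision is limited by low counts for SLC16A1 (1 to 4 in a siCtrl library), PDK3 (17 to 50), CA9 (52 to 208) and ANKRD37 (71 to 205).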
